A study of Homo sapiens with 6 samples.

Results

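The carbonic anhydrase genes CA2, CA8, CA9, CA11, CA12 and CA13 are described here in SCC-9 cells, a cultured line from a human squamous cell carcinoma of the tongue. They were picked by gene symbol from a table of 17862 genes, all 6 were found, and another 7 genes of the family are listed beside them. The choice was made with the difference between the 2 groups already known, so the values of these 6 genes are given as a description and not as a test. The 2 groups differ in the hairpin RNA their plasmid encodes, which targets MTHFD2 in the 3 shMTHFD2 libraries and serves as a control in the 3 shNC libraries. Both groups grew in DMEM/F12 with 10% serum and hydrocortisone at 400 ng/mL, and no oxygen tension or medium pH is stated. The design text speaks of knock-out, whereas the treatment label speaks of knockdown, the term used below. The number of hairpin sequences or clones is not stated. The headers of the deposited values name the control shNC2, whereas the sample titles run from shNC1 to shNC3. The study's title concerns MTHFD2, a mitochondrial enzyme of folate metabolism, and the degradation of the transcription factor FOXO1.

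Carbonic anhydrases interconvert carbon dioxide and water with bicarbonate and a proton, using a zinc ion held by histidines. CA2 and CA13 act in the cytosol, whereas CA9 and CA12 are anchored in the plasma membrane with the catalytic domain facing outward, where they take part in pH regulation around tumour cells. CA8 and CA11 are carbonic anhydrase-related proteins that lack a complete set of zinc-binding histidines and do not hydrate carbon dioxide. Transcription of CA9 is known to be induced by hypoxia-inducible factor (HIF), and its protein is widely used as a marker of hypoxic tumour tissue.

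The libraries held 18676999 to 19838989 estimated read counts. The targeted transcript MTHFD2 was at 160.42, 168.02 and 149.6 TPM (a level scaled to transcript length) in shNC and at 38.52, 29.05 and 58.5 TPM in shMTHFD2, so each knockdown library lay below each control, with the most MTHFD2 left in shMTHFD2 replicate 3. Across genes, log2 CPM of replicate libraries correlated at 0.992 to 0.994 for shNC and at 0.9575 to 0.9843 for shMTHFD2, whose libraries differed more from each other. Squamous epithelial markers summed to 9219 to 10196 TPM in shNC and 8578 to 10645 in shMTHFD2, with 0 of 10 called by edgeR, 0 by DESeq2 and 0 at an unadjusted p under 0.05. Whether a bulk level reflects more RNA per cell or more cells that make it cannot be told apart.

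CA9 was the most abundant carbonic anhydrase in every library. Its level was 216.07, 189.91 and 262.13 TPM in shNC, which placed it at ranks 695, 816 and 551 among all genes. In shMTHFD2 it was at 1541.59, 1446.63 and 701.84 TPM, ranks 98, 103 and 186. The groups did not overlap, and shMTHFD2 replicate 3 was the lowest of the knockdown libraries. The group means were 223 ± 36.6 and 1230 ± 460 TPM (SD, n = 3), and the fitted log2 fold change of shMTHFD2 over shNC was 2.42 (SE 0.32). Against the shNC mean, the knockdown libraries stood 6.92-fold, 6.50-fold and 3.15-fold higher. The values rested on 2747 to 3858 reads in shNC and 9784 to 22186 in shMTHFD2, so counting error was small beside the spread between libraries. No gene of the RefSeq table overlaps CA9.

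The promoter of CA9 is shown because a hypoxia response element close to its start is the known site of HIF binding. The window runs from 250 bases before to 50 bases after the RefSeq start, on the plus strand of GRCh38.p14 at chr9:35673678-35673977. Capitals mark the core ACGTG, here read on the opposite strand as CACGT.
CA9: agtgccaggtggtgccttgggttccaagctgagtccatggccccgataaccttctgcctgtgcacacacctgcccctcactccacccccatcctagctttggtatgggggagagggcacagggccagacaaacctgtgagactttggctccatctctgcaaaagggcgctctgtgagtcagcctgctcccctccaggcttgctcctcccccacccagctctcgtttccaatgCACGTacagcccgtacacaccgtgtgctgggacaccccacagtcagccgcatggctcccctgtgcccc
The core lies 18 to 14 bases before the start. It is present on either strand in the windows of 24.8% of the 27167 genes with a RefSeq promoter window. The related core GCGTG, the forkhead motif GTAAACA and the SP1 motif GGGCGG were searched on both strands and had no match in this window, which says only that these letters are not there. These motifs are in 40.5%, 4.19% and 48.2% of the genes' windows.

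CA12, the other transmembrane enzyme of the set, was measured at 8.51, 7.55 and 9.6 TPM in shNC. It was at 19.47, 15.57 and 21.13 TPM in shMTHFD2. All 3 knockdown libraries were higher than all 3 controls, and the highest was shMTHFD2 replicate 3, the library in which CA9 was lowest. The means were 8.55 ± 1.03 and 18.7 ± 2.85 TPM (SD, n = 3), with a fitted log2 fold change of 1.07 (SE 0.14). Each knockdown library stood 2.28-fold, 1.82-fold and 2.47-fold above the shNC mean, a narrower range than that of CA9. Between 439 and 1184 reads per library stood behind these values. The annotation places a pair of long non-coding RNAs over CA12, and since the handling of strand is not given, their reads and those of CA12 cannot be told apart.

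The promoter window of CA12, shown for comparison with that of CA9, lies on the minus strand of GRCh38.p14 at chr15:63381797-63382096. Capitals mark the core GCGTG, read on the opposite strand as CACGC.
CA12: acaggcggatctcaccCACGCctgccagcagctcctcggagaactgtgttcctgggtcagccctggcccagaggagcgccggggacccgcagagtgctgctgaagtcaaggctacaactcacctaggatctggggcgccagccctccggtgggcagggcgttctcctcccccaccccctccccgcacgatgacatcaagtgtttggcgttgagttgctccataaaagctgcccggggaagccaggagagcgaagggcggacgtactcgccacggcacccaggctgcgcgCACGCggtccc
No ACGTG was found in it. The GCGTG matches lie 234 to 230 bases before the start and at bases 40 to 44 after it. The motif GGGCGG is at bases 4 to 9, and GTAAACA had no match.

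**Figure D1:**
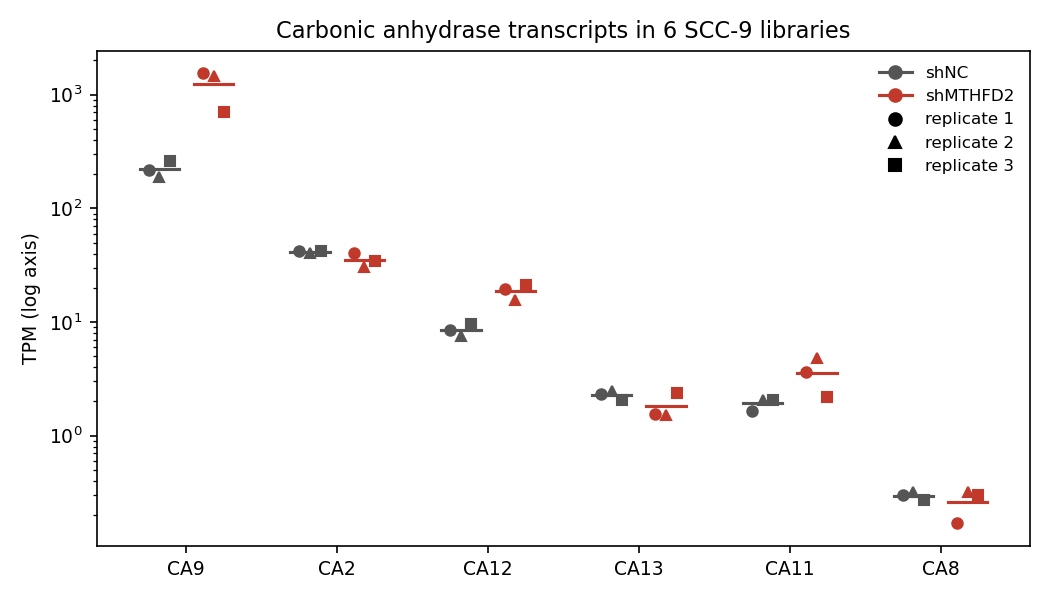
TPM (log axis) of the 6 carbonic anhydrases in each library, with shNC in grey and shMTHFD2 in red; symbols are replicates and horizontal lines are group means. CA9 and CA12 were higher in all 3 knockdown libraries, while CA2 and CA13 had lower means of 35.2 and 1.81 TPM in shMTHFD2.

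CA2, the fast cytosolic enzyme of red cells, kidney and osteoclasts, was the second most abundant member. It was at 41.75, 40.84 and 41.81 TPM in shNC and at 40.77, 30.25 and 34.64 TPM in shMTHFD2. The knockdown libraries all lay below the controls, but shMTHFD2 replicate 1 did so barely. The means were 41.5 ± 0.544 and 35.2 ± 5.28 TPM (SD, n = 3), and the log2 fold change was -0.29 (SE 0.13). It was -0.19 (SE 0.11) without shMTHFD2 replicate 2 and -0.42 (SE 0.11) without shMTHFD2 replicate 1. The antisense RNA CA3-AS1 overlaps CA2 and could share its reads. In shNC the SD was 1.31% of the mean for CA2, against 16.4% for CA9.

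CA13, the second cytosolic enzyme, is a close neighbour of CA2 in the genome, with CA1 and CA3 between them. It was at 2.31, 2.46 and 2.06 TPM in shNC and at 1.55, 1.52 and 2.35 TPM in shMTHFD2. The groups overlapped, since shMTHFD2 replicate 3 was within the range of the controls. Its log2 fold change was -0.39 (SE 0.22), from 55 to 91 reads per library, and -0.57 (SE 0.19) without shMTHFD2 replicate 3.

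CA11, one of the related proteins without catalytic activity, was at 1.66, 2.05 and 2.08 TPM in shNC and at 3.62, 4.81 and 2.19 TPM in shMTHFD2. The groups did not overlap, although shMTHFD2 replicate 3, with 34 reads, was hardly above shNC replicate 3, also with 34 reads. The means were 1.93 ± 0.234 and 3.54 ± 1.31 TPM (SD, n = 3), and the log2 fold change was 0.83 (SE 0.34). It was 0.55 (SE 0.31) without shMTHFD2 replicate 2 and 1.11 (SE 0.25) without shMTHFD2 replicate 3. The annotated pseudogene SEC1P overlaps CA11 and could share its reads.

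CA8, the related protein known from Purkinje cells of the cerebellum, was close to the limit of detection. It was at 0.3, 0.32 and 0.27 TPM in shNC and at 0.17, 0.32 and 0.3 TPM in shMTHFD2, on 4 to 9 reads per library. A count of 4 has a 95% Poisson interval of 1.09 to 10.2 reads and a count of 9 one of 4.12 to 17.1, for counting error only. A difference between the groups was not detectable at this depth, and CA8 did not pass the filter on low counts. The order of its TPM did not follow its reads, since shMTHFD2 replicate 3 had the fewest reads.

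The remaining 5 of the 6 members were tested with all other genes by edgeR's quasi-likelihood test. An adjusted p under 0.05 was reached by 2 of them, CA9 and CA12, both higher, where 5.43% of the 13710 genes tested were called in either direction and 2.97% were called higher. The members were chosen on this contrast, so nothing is read from that count. It was 0 without shNC replicate 1, 2 or 3 and without shMTHFD2 replicate 1, 2 without shMTHFD2 replicate 2 and 3 without shMTHFD2 replicate 3. CA9, CA11 and CA12 were higher and CA2 lower in TPM without overlap of the groups, as were 35.7% of all tested genes in either direction, 22.5% higher and 13.2% lower. For CA9 the log2 fold change lay between 2.22 and 2.73 when each library was left out in turn, and for CA12 between 1.00 and 1.19.

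**Figure D2:**
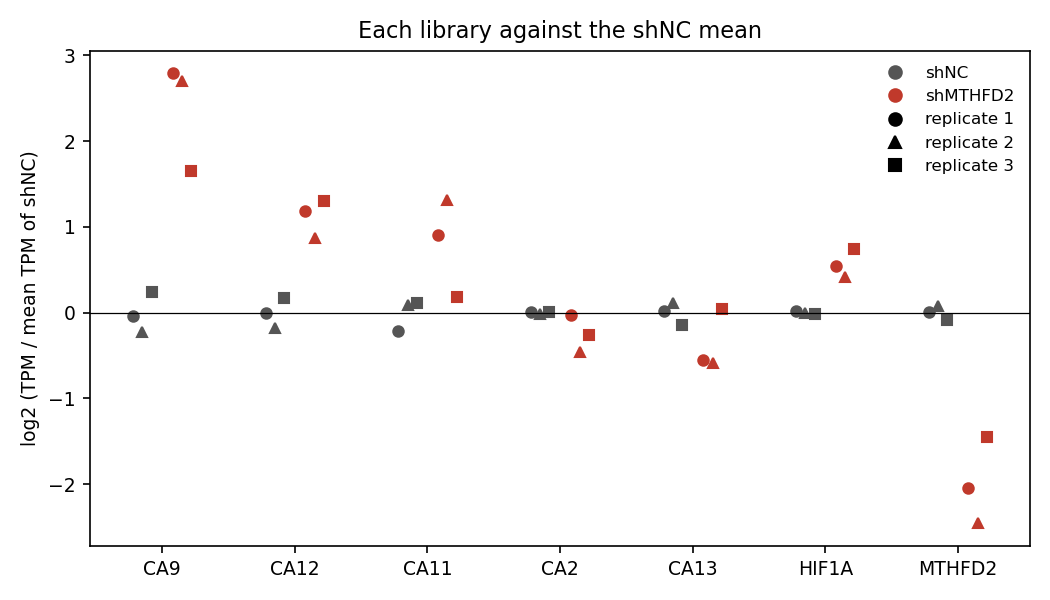
Log2 ratio of TPM in each library to the mean of the 3 shNC libraries, with shNC in grey and shMTHFD2 in red; symbols are replicates. CA9 and CA11 are lowest in shMTHFD2 replicate 3 among the knockdown libraries, whereas CA12 and HIF1A are highest there and MTHFD2 is reduced least, to 36.7% of the shNC mean.

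The knockdown libraries did not rank the members alike. In shMTHFD2 replicate 2, where 18.2% of the mean control MTHFD2 level was left, CA2, CA12 and CA13 had their lowest values of the knockdown group and CA11 its highest. For CA13 this was close to a tie, at 1.52 TPM on 55 reads against 1.55 TPM on 57 reads in shMTHFD2 replicate 1. In shMTHFD2 replicate 3, with 36.7% of MTHFD2 left, CA9 and CA11 had their lowest values of the knockdown group and CA12 and CA13 their highest. The ratio of CA9 to CA12 in TPM was 25.2 to 27.3 in the controls, against 79.2, 92.9 and 33.2 in the knockdown libraries, in the order of their replicate numbers.

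The family as a whole was made up mainly of CA9. Over the 13 carbonic anhydrases in the table, the summed level was 275, 247 and 323 TPM in shNC and 1612, 1507 and 767 TPM in shMTHFD2. CA9 made up 78.6%, 76.8% and 81.1% of that sum in the controls and 95.6%, 96.0% and 91.5% in the knockdown libraries. Without CA9 the sum was 57.2 to 61.0 TPM in shNC and 60.5 to 70.3 TPM in shMTHFD2, ranges that overlap narrowly. CA2 made up 12.9 to 16.5% of the family in shNC and 2.01 to 4.52% in shMTHFD2.

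**Figure D3:**
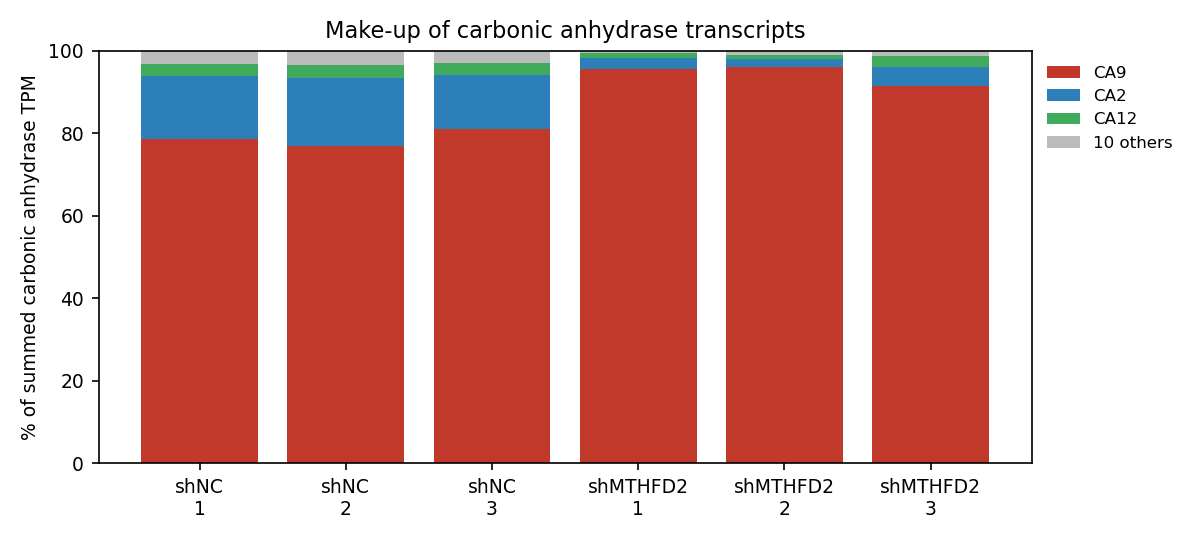
Share of the summed carbonic anhydrase TPM (%) taken by CA9, CA2, CA12 and the other 10 genes in each library. The CA9 share is 76.8 to 81.1% in the 3 shNC libraries and 91.5 to 96.0% in the 3 shMTHFD2 libraries.

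In order of TPM in shNC, CA9 was followed by CA2, CA12, the mitochondrial enzyme CA5B, CA13, CA11, the transmembrane CA14 and CA8. Neighbours in that order had ranges without overlap down to CA13, whose range overlapped that of CA11, and CA14 overlapped CA8. In shMTHFD2 the first 4 genes kept their order, and CA5B, CA11 and CA13 followed with CA5B overlapping CA11 and CA11 overlapping CA13. Of the 7 other family members in the table, CA5B was tested. It was at 3.71, 3.14 and 4.12 TPM in shNC and at 4.28, 6.6 and 3.68 TPM in shMTHFD2, with overlapping groups (log2 0.36, SE 0.25, adjusted p = 0.352). It is uncertain because the pseudogene CA5BP1 could share its reads. edgeR called 0 of 1 tested in this group, with 0 at an unadjusted p under 0.05 and 0 in DESeq2. The secreted salivary enzyme CA6 and CA3, CA5A, CA7, CA10 and CA14 stayed under 1 TPM in every library and were not tested, and CA10 was listed at 0 in all 3 shNC libraries, where a count of 0 allows up to 3 reads per library. CA1 and CA4 were not found by symbol in the table and so have no values here.

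The genes most like CA9 over the 6 libraries were CASP14, TXNIP, MMP9, ENO2 and DEPP1. Likeness was the root mean square difference between profiles of log2(TPM + 1), each centred on its shNC mean, among 10285 other genes with a mean of at least 5 TPM. It was 0.37 for CASP14, a caspase of differentiating keratinocytes, which was at 0.9, 1.07 and 1.55 TPM in shNC and 19.8, 21.52 and 4.67 TPM in shMTHFD2, again lowest in replicate 3. TXNIP, a thioredoxin-binding arrestin, came next at 0.41, with 74.62, 57.77 and 112.55 TPM in shNC and 543.93, 972.0 and 301.34 TPM in shMTHFD2. MMP9, ENO2 and DEPP1 followed at 0.47, 0.51 and 0.52, against a median of 1.75 over all genes compared. In shMTHFD2, MMP9 was at 17.28, 28.72 and 18.64 TPM, ENO2 at 19.11, 25.59 and 23.04 and DEPP1 at 48.92, 43.52 and 45.42. None of these was lowest in replicate 3. The minimum of 5 TPM applied to the mean of all 6 libraries. CASP14 and MMP9, at shNC means of 1.17 and 4.42 TPM, passed it only through shMTHFD2. The added 1 TPM also damps changes from a low level, and the fitted log2 fold change of CASP14 was 3.67. CA12 was at 1.06 from CA9, rank 100. Seen from CA12, the same distance put CA9 at rank 9434 of 10285, above the median of 0.77 for genes compared with CA12.

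The genes most like CA12 were PCSK1N, TNFSF10, APLP1, COL6A1 and WFDC2, at 0.12 to 0.16 against a median of 0.77. APLP1, at a mean of 3.91 TPM in shNC and 8.10 TPM in shMTHFD2, passed the minimum only through shMTHFD2. PCSK1N, an inhibitor of a prohormone convertase, was at 25.34, 21.95 and 24.07 TPM in shNC and 50.09, 44.53 and 48.52 TPM in shMTHFD2. TNFSF10, which encodes the death ligand TRAIL, was at 17.89, 13.43 and 22.12 TPM in shNC and 34.86, 30.77 and 38.64 TPM in shMTHFD2, in the same order of libraries as CA12 within each group. Both sets follow from the shape of the change between the groups, on which CA9 and CA12 were chosen.

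Among 18 tested genes of HIF and its oxygen-sensing machinery, edgeR called 1, HIF1A, where 5.43% of all genes were called. HIF1A encodes the oxygen-regulated subunit of HIF. It was at 475.36, 465.53 and 463.07 TPM in shNC and 682.17, 621.61 and 783.63 TPM in shMTHFD2, without overlap. It rose by 0.52 on the log2 scale (SE 0.10, adjusted p = 0.0337). The subunits ELOC and RBX1 of the VHL ubiquitin ligase, which marks HIF for degradation, had log2 fold changes of -0.36 (SE 0.08, adjusted p = 0.0505) and -0.41 (SE 0.10, adjusted p = 0.0517). Both had lower TPM in all 3 knockdown libraries than in any control, as had 13.2% of all tested genes. The further subunits ELOB and CUL2 were at 0.06 (SE 0.14, adjusted p = 0.781) and -0.25 (SE 0.14, adjusted p = 0.271), with overlapping groups. VHL itself was at 0.15 (SE 0.08, adjusted p = 0.276) and EPAS1, which encodes the related HIF subunit, at 0.02 (SE 0.08, adjusted p = 0.866), a pair named after its values were seen. At an unadjusted edgeR p under 0.05, 1 gene of the list was higher and 4 were lower, against 1998 and 1934 of all tested genes. Besides ELOC and RBX1, the lower ones were CREBBP at -0.52 (SE 0.14, adjusted p = 0.0742) and EP300 at -0.30 (SE 0.09, adjusted p = 0.0931). The median of the list was -0.04, against 0.01 over all tested genes. DESeq2 called HIF1A and 3 lower genes. The HIF1A call was lost without any 1 of the shNC libraries or shMTHFD2 replicate 1, where 0 of 18 were called, and 4 were called without shMTHFD2 replicate 2 or 3. Of all tested genes, 1968 of 13830 were called without shMTHFD2 replicate 2 and 3651 of 13901 without shMTHFD2 replicate 3. HIF activity is set largely by the stability of the protein, which was not measured.

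Of 29 HIF target genes other than the carbonic anhydrases, 7 rose and 1 fell, where 2.97% of all genes were called higher and 2.47% lower. The list's median log2 fold change was 0.41, against 0.01 over all tested genes. LOX, a lysyl oxidase that crosslinks collagen, rose from 4.16, 3.71 and 4.55 TPM to 8.47, 15.56 and 12.94 TPM (log2 1.53, SE 0.23, adjusted p = 0.0215). NDRG1, a stress-induced gene, rose from 226.74, 207.42 and 265.07 TPM to 623.55, 390.53 and 674.22 TPM (log2 1.22, SE 0.20, adjusted p = 0.0256). P4HA1, a collagen prolyl hydroxylase, rose by 0.95 (SE 0.12, adjusted p = 0.0137), and the peptide hormone gene ADM by 0.78 (SE 0.12, adjusted p = 0.0227). The mitophagy receptors BNIP3L and BNIP3 rose by 0.76 (SE 0.08, adjusted p = 0.00842) and 0.63 (SE 0.11, adjusted p = 0.0291), and the lipoprotein receptor VLDLR by 1.33 (SE 0.26, adjusted p = 0.036). STC2, which encodes the secreted glycoprotein stanniocalcin 2, fell by 0.72 (SE 0.14, adjusted p = 0.0358). DESeq2 called 12 of the 29 higher and 2 lower. On log2(TPM + 1) and on log2(TPM + 0.1), limma called 6 higher and 0 lower, without STC2 and VLDLR. The edgeR count of 8 was 0 without any 1 of the shNC libraries, 2 without shMTHFD2 replicate 1, 16 without shMTHFD2 replicate 2 and 14 without shMTHFD2 replicate 3. Over all genes it was 1968 of 13830 tested without shMTHFD2 replicate 2 and 3651 of 13901 without shMTHFD2 replicate 3.

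Of the 29 HIF targets, 22 had a positive log2 fold change, and 14 were higher and 2 lower at an unadjusted p under 0.05. Of all 13710 tested genes, 6994 had a positive value, and 1998 were higher and 1934 lower at that p. The 21 that edgeR did not call differed in sign, and most were positive. VEGFA, the angiogenic growth factor, was at 162.47, 157.52 and 149.22 TPM in shNC and 98.44, 62.85 and 142.3 TPM in shMTHFD2, a log2 value of -0.69 (SE 0.24, adjusted p = 0.123). The glucose transporter SLC2A1 was at 0.44 (SE 0.12, adjusted p = 0.0763), and the lactate dehydrogenase LDHA at -0.24 (SE 0.22, adjusted p = 0.481). VEGFA, SLC2A1 and LDHA were named after their values were seen. So was ALDOC, which had the largest change of the 21, a log2 value of 1.58 (SE 0.41, adjusted p = 0.0668).

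In their promoter windows, 16 of the 25 HIF target genes with a RefSeq window held ACGTG (64.0%), against 24.8% of all genes. GCGTG was in 72.0% of the 25, GGGCGG in 88.0% and GTAAACA in 0.0%, against 40.5%, 48.2% and 4.19% of all genes. The shares of all genes cover the 27167 with a RefSeq window, more than the 17862 measured here. Of the 8 called genes, 6 had a window and 3 of these held ACGTG. The contexts nearest to a start are shown beside that of CA9, each with 8 bases on either side and written so that the core, in capitals, reads 5′ to 3′ as ACGTG.
CA9: cgggctgtACGTGcattggaa
P4HA1: ccctcgctACGTGagctcgat
BNIP3: cgcgccgcACGTGccacacgc
LOX: ctttgcaaACGTGccagaaag
In GRCh38.p14 these are at chr9:35673902-35673922, chr10:73096940-73096960, chr10:131982044-131982064 and chr5:122078289-122078309. The core begins 18 bases before the start in CA9, 86 in P4HA1, 133 in BNIP3 and 42 in LOX. These contexts of CA9 and P4HA1 are on the strand opposite to the gene and those of BNIP3 and LOX on the same strand. The BNIP3 site also reads ACGTG on the opposite strand, 134 to 130 bases before the start, and LOX has further matches on both strands. A match is a description and not evidence of binding.

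**Figure D4:**
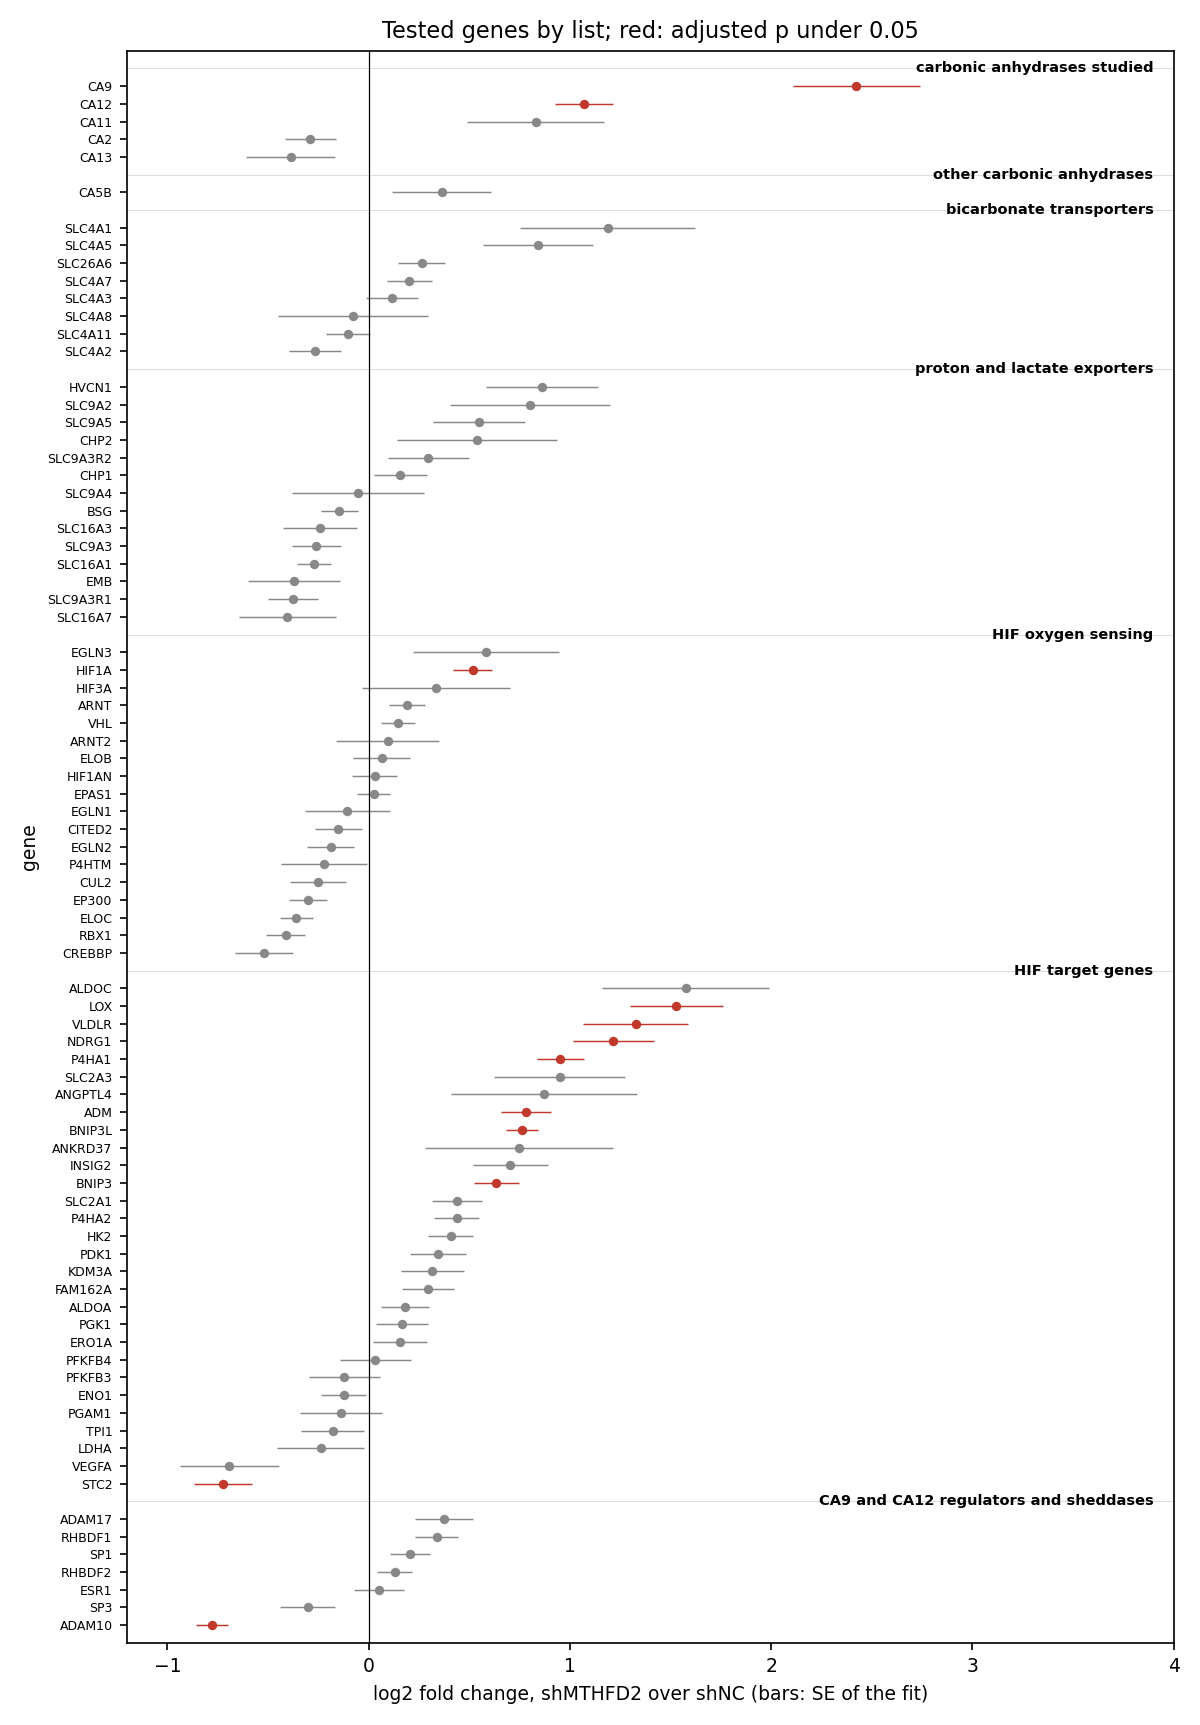
Fitted log2 fold change of shMTHFD2 over shNC for each tested gene (rows), grouped by list; bars are the SE of the fit and red marks an adjusted p under 0.05. CA9 has the largest value shown at 2.42, and 7 HIF target genes are red to the right of 0 and STC2 to the left.

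Bicarbonate transporters move a product of carbonic anhydrases across the membrane. Of 8 tested edgeR called 0, with 2 higher at an unadjusted p under 0.05 and 0 in DESeq2, and their median log2 fold change was 0.16. The sodium bicarbonate cotransporter SLC4A5 was at 0.88, 0.51 and 0.93 TPM in shNC and 1.59, 1.19 and 1.51 TPM in shMTHFD2 (log2 0.84, SE 0.27, adjusted p = 0.103). The anion exchanger SLC4A1 had a log2 value of 1.19 (SE 0.43, adjusted p = 0.131) at under 1 TPM, and SLC26A6, another anion exchanger, one of 0.26 (SE 0.12, adjusted p = 0.183). The list's count was 1 without shMTHFD2 replicate 2 and 1 without shMTHFD2 replicate 3. Those omissions gave calls for 1968 of 13830 and 3651 of 13901 tested genes.

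Of 14 proton and lactate exporters and their partners that are reported here, edgeR called 0, with 2 higher and 2 lower at an unadjusted p under 0.05 and 0 in DESeq2, and the median log2 fold change was -0.10. The lactate transporter SLC16A1 was at 90.03, 92.24 and 81.16 TPM in shNC and 74.37, 71.71 and 80.25 TPM in shMTHFD2, without overlap of the groups (log2 -0.27, SE 0.09, adjusted p = 0.0979). Its shMTHFD2 replicate 3 lay barely below shNC replicate 3, and 13.2% of all tested genes were lower without overlap. The proton channel HVCN1 had a log2 value of 0.86 (SE 0.28, adjusted p = 0.103), and SLC9A3R1, a scaffold protein of membrane transporters, one of -0.38 (SE 0.12, adjusted p = 0.106). The 14 genes had 4 calls, 2 higher and 2 lower, without shMTHFD2 replicate 3, where 3651 of all 13901 tested genes were called.

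Of 7 genes for transcription factors and proteases linked to CA9 or CA12, 1 fell, where 2.47% of all genes were called lower. ADAM10, a membrane metalloproteinase that sheds ectodomains, was at 67.49, 71.03 and 64.91 TPM in shNC and 40.41, 37.81 and 42.05 TPM in shMTHFD2, without overlap. It fell by 0.78 on the log2 scale (SE 0.08, adjusted p = 0.00776). ADAM17, the protease known to release the CA9 ectodomain, was at 28.88, 29.27 and 28.74 TPM in shNC and 31.52, 45.8 and 39.02 TPM in shMTHFD2, with a log2 value of 0.37 (SE 0.14, adjusted p = 0.143). RHBDF1, which supports the maturation of ADAM17, was at 0.34 (SE 0.11, adjusted p = 0.0966). The median of the list was 0.13. The ADAM10 call was lost without any 1 of the shNC libraries or shMTHFD2 replicate 1. Without shMTHFD2 replicate 3, 3 of the 7 genes were called, as were 3651 of all 13901 tested genes.

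Markers of other cell types were mostly low. Fibroblast markers summed to 6.16 to 8.92 TPM in shNC and 13 to 24.5 TPM in shMTHFD2, led by the collagen gene COL1A1, with 0 of 4 tested called by edgeR, 1 higher at an unadjusted p under 0.05 and 1 higher in DESeq2, and 5 of 8 under 1 TPM throughout. Leukocyte markers summed to 126 to 138 and 131 to 196 TPM, nearly all from CD68, while PTPRC was under 1 TPM in every library. Endothelial markers summed to at most 0.76 TPM and erythroid ones to at most 1.24 TPM, and the highest of these were PECAM1 and, among erythroid genes, SLC4A1. Neuronal markers summed to 91.4 to 96.0 and 79.8 to 110 TPM, nearly all from CALB1. edgeR called 0 of the 3 tested leukocyte, 0 of 2 endothelial, 0 of 1 erythroid and 0 of 3 neuronal markers, with 1 erythroid gene higher at an unadjusted p under 0.05 and 0 in DESeq2. Most of the higher fibroblast sum was COL1A1, at means of 5.71 TPM in shNC and 14.5 TPM in shMTHFD2. COL1A2 was at means of 0.64 and 0.77 TPM and DCN at 0.887 and 1.01 TPM. The part of the higher fibroblast sum in the values of CA9 and CA12 was not tested.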

How the data were processed

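Messenger RNA of 6 libraries was analysed from 1 deposited table of 17862 genes with Entrez identifiers, of which 17793 are in the human RefSeq table. Per the file headers, the authors deposited FPKM, TPM, estimated read counts and normalized read counts, a signal in which counts are divided by a factor per library. FPKM and the normalized signal were not used. Only 53.0 to 56.0% of the deposited estimated counts are whole within 0.001, and they were rounded. No source used here gives the aligner, counter, annotation or strand handling, and per the submitters' processing notes the build is mm10, a mouse genome, for these human cells. Gene coordinates are therefore given only for RefSeq promoter windows (GRCh38.p14), matched by gene identifier for 2 of the 6 members, CA9 and CA12.

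Genes were kept with filterByExpr, scaled by TMM and compared with edgeR's robust quasi-likelihood F test (edgeR 4.0.16, R 4.3.3), with Benjamini-Hochberg adjustment over 13710 genes and a threshold of 0.05. SEs were taken as |log2 fold change| divided by the root of the F statistic. The biological coefficient of variation was 16.7%. "Rose" and "fell" mean an adjusted p under 0.05. Replicates are called biological in the design text, with no detail of separate cultures, so p-values may measure only technical spread among the 6 libraries. A chi-square per degree of freedom of 3.50 to 77.4 between replicates showed no duplicates.

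The members, the 6 lists of related genes, the markers, motifs and tests were chosen with earlier results of these data known. Named from each list were all called genes and, where fewer than 3 passed, those with the smallest adjusted p. Alternatives were each library left out, no filter, upper quartile scaling, DESeq2 size factors, a block for the replicate number, DESeq2 1.42.0 and limma-trend (limma 3.58.1) on log2(TPM + 1) or log2(TPM + 0.1) for genes with at least 1 TPM in 3 libraries. The test was checked on simulated counts. A result of a single gene in the list of proton and lactate exporters is not reported here, and the counts of that list leave it out. An alignment of the proteins was planned and not made. Python 3.11.15, pandas 2.3.3, NumPy 2.4.6, SciPy 1.17.1 and matplotlib 3.10.9 were used.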

Additional observations from a re-analysis of the deposited data

How the results depend on the processing

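The log2 fold changes of CA2, CA9, CA11, CA12 and CA13 kept their sign under all 13 alternatives. With 1 library left out they ranged from -0.42 to -0.19 for CA2, 2.22 to 2.73 for CA9, 0.55 to 1.11 for CA11, 1.00 to 1.19 for CA12 and -0.57 to -0.28 for CA13. Counts of calls depended on single libraries: over the 6 omissions they ran from 1 to 3651 for all genes, where 745 were called with all libraries, from 0 to 3 for the carbonic anhydrases and from 0 to 26 for the related genes, where 10 of 77 tested were called. By list they ran from 0 to 16 for HIF targets, 0 to 4 for oxygen sensing, 0 to 4 for proton and lactate exporters, 0 to 1 for bicarbonate transporters and 0 to 3 for the regulators and sheddases. DESeq2 called 1983 genes in all, 19 related genes, 14 HIF targets and 4 oxygen-sensing genes. The cause was not tested. No called related gene changed sign in any alternative.

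Same-numbered libraries did not deviate together, with correlations of 0.000986, -0.237 and -0.187 between deviations from the group means for numbers 1, 2 and 3, so the numbers are not taken as pairs. Between libraries of different numbers the correlations ran from -0.0684 to 0.219, the latter for shNC replicate 2 with shMTHFD2 replicate 3. With the replicate block edgeR called 16 genes, 0 of the carbonic anhydrases, 0 of the related genes and 0 of each list. Depth limits CA8, at 4 to 9 reads per library, and CA11, at 26 to 75.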
